A study of Mus musculus with 6 samples.

Results

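The genes described here are 10 genes of the YAP pathway and the CCN family, out of 17554 coding genes in the deposited table, and 9 of the 10 passed the filter on low counts. They are *Nov*, *Ctgf* and *Cyr61*, which encode secreted CCN proteins, *Ankrd1* and *Amotl2*, used as readouts of YAP activity, *Yap1* and *Wwtr1*, which encode the coactivators YAP and TAZ, their DNA-binding partner *Tead1*, and the kinases *Lats1* and *Lats2*. They were found by gene symbol and were chosen by a rule made with the mutant against control differences of these samples known, so their fold changes and adjusted p-values are given as a description and support nothing further. The samples were the corneal epithelial layer of 3 control mice, labelled WT, and of 3 *Krt14-Cre; Rela f/f* mice, labelled Rela-/- and here called mutant, all C57BL/6 by the labels and 2 months old. *Krt14-Cre* is a recombinase driven by the keratin 14 promoter, which is used by basal cells of the corneal, limbal and conjunctival epithelium and of other stratified epithelia, and it removes the floxed part of *Rela*, the gene of the NF-κB subunit RelA. Cells that neither use the *Krt14* promoter nor descend from cells that did keep *Rela*. RNA of all cells of a sample was sequenced together.

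The Hippo pathway is a chain of kinases that restrains tissue growth. The kinases LATS1 and LATS2 phosphorylate YAP and TAZ, which are then held in the cytoplasm or degraded. Unphosphorylated YAP and TAZ enter the nucleus, bind TEAD factors and switch on genes such as *Cyr61*, *Ctgf* and *Ankrd1*. The pathway acts largely on the proteins, so transcript levels of *Yap1*, *Wwtr1*, *Lats1* and *Lats2* do not report the activity of their products. In the corneal epithelium YAP is found in basal and limbal cells, where it responds to the stiffness of the matrix and to wounding. CCN proteins are secreted into the matrix and act on cells through integrins and proteoglycans.

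TEAD factors bind the hexamer GGAATG, and stretches that hold it are shown because YAP is known to act on genes through TEAD factors. RefSeq windows of 250 bases before the transcript start, of the build GRCm38.p6, matched 7 of the 10 genes by gene identifier, and *Nov*, *Ctgf* and *Tead1* had no match. The hexamer was searched on both strands. It occurred in windows of 5 of these 7 genes, *Cyr61*, *Ankrd1*, *Amotl2*, *Yap1* and *Wwtr1*, and in none of those of *Lats1* and *Lats2*. Of all 32851 windows, 12.6% held it. The letters TGANTCA of AP-1, present in 6.75% of all windows, and matches of the κB motif, present in 3.9%, and of the CArG motif, present in 1.47%, were found in none of the windows of the 7 genes. These matches are letters only and no binding was measured. The stretches below run 5′ to 3′ on the strand of the gene, with the hexamer or its reverse complement CATTCC in capitals.
Cyr61, chr3:145650071-145650100, minus strand: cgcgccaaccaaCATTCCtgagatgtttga
Ankrd1, chr19:36120037-36120066, minus strand: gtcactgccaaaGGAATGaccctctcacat
Ankrd1, chr19:36119950-36119979, minus strand: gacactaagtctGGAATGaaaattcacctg
Amotl2, chr9:102717727-102717756, plus strand: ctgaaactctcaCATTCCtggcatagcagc
Yap1, chr9:8004720-8004749, minus strand: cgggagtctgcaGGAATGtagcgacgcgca
Wwtr1, chr3:57576029-57576058, minus strand: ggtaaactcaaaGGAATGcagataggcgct

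The first capital base lay at position -103 from the annotated start of *Cyr61*, at -210 and -123 of *Ankrd1*, at -65 of *Amotl2* and at -141 of *Yap1*. *Wwtr1* has 2 annotated starts, and the same hexamer lay at -136 and at -170 from them. *Ankrd1* was the only gene with 2 matches in its window. The *Cyr61* window is given whole, since *Cyr61* was the only one of these 7 genes with an adjusted p under 0.05, and no annotated exon overlaps it. The stretches of *Ankrd1* and *Amotl2* lie in windows that GENCODE annotates in full or in part as exon of the same gene. This holds in part also for the *Wwtr1* window in which the hexamer is at -170.
Cyr61, chr3:145649986-145650235, minus strand: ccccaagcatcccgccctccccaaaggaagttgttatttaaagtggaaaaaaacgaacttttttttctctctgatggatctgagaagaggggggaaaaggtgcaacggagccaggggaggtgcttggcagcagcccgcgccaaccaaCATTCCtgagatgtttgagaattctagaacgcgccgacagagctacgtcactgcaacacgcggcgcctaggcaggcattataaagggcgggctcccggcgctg

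Each sample held 19492942 to 19733834 expected counts, and the detection floor of 3 counts came to 0.152 to 0.154 CPM (counts scaled to the library total). Levels are given as FPKM, which corrects counts for transcript length and library total, and differences as log2 fold changes of mutant over control from edgeR's quasi-likelihood test, with p-values adjusted over 12667 genes (Benjamini-Hochberg). *Rela*, the targeted gene, had an FPKM of 33.4 to 36.5 in control and of 4.93 to 5.72 in mutant samples. The corneal keratin *Krt12* was abundant in all samples, at 17005 to 21194 FPKM. Of the 12 keratocyte and fibroblast markers, 4 passed the filter, 1 rose and 1 fell, and their summed FPKM was 2.82 to 3.28 in control and 2.56 to 5.55 in mutant samples. Markers of blood vessel endothelium summed to 0.92 to 1.92 FPKM in control and 0.93 to 1.17 in mutant samples. Only 1 of them, *Tie1*, passed the filter, and it did not pass the test (adjusted p = 0.138 by edgeR). Most of the sum was *Tie1*, at 0.89 to 1.8 FPKM in control and 0.7 to 0.93 in mutant samples. *Pecam1*, removed by the filter, had 2 to 5 counts in control and 7 to 14 in mutant samples. Its adjusted p in the fit without a filter was 0.111 by edgeR. None of the leukocyte, muscle, melanocyte or nerve markers that passed the filter passed the test either. The leukocyte markers summed to 86.3 to 93.3 FPKM in control and 82.5 to 128 in mutant samples. Most of this sum was *Itgam*, at 63.85 to 67.15 FPKM in control and 50.97 to 94.77 in mutant samples. The general leukocyte marker *Ptprc* was at 0.01 to 0.15 FPKM in all samples. Of the markers removed by the filter, *Col1a1*, *Col3a1* and the leukocyte gene *Lyz2* rose in the fit without a filter (adjusted p = 0.00607, 0.00436 and 0.00874 by edgeR), from 0 to 2 counts in control to 3.79 to 32 counts in mutant samples. Of the 9 corneal epithelial markers, 1 rose and 1 fell. The riser was the basal keratin *Krt14* itself, at 150 to 203 FPKM in control and 1474 to 2204 in mutant samples. The basal genes *Krt5* and *Trp63* of the same list did not pass the test (adjusted p = 0.591 and 0.82 by edgeR). Conjunctival and goblet cell markers, of which 1 fell, summed to 1363 to 1597 FPKM in control and 1075 to 1192 in mutant samples. The 1 that fell was *Krt13*, which made up most of this sum. Its FPKM was 1191 to 1404 in control and 939 to 1061 in mutant samples. The goblet cell mucin *Muc5ac* had 0 to 1 count in every sample. The part of these differences in the results below was not tested. In such bulk samples, fewer cells of a type and less RNA per cell cannot be told apart.

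The CCN family is led by *Cyr61* in this epithelium. In control samples *Cyr61* made up 89.97% ± 0.93 (SD, n = 3) of the summed FPKM of the 6 family members, *Nov* 8.18% ± 0.8 and *Ctgf* 1.13% ± 0.64. In mutant samples these shares were 97.4% ± 1.2 for *Cyr61*, 1.84% ± 1.05 for *Nov* and 0.362% ± 0.223 for *Ctgf*. *Cyr61* and *Nov* thus moved apart, and the ratio of their FPKM values was 9.82 to 12.1 in control and 31.6 to 90.6 in mutant samples.

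*Nov* (Ccn3, gene 18133, chr15:54745928-54753762), a CCN protein known as an inhibitor of proliferation in several cell types, had an FPKM of 3, 2.85 and 2.77 in control samples 1, 2 and 3 and of 0.65, 0.75 and 1.18 in mutant samples 1, 2 and 3. The groups did not overlap, and mutant sample 3 lay closest to the controls. The expected counts were 128 to 140 in control and 29.9 to 55.1 in mutant samples. The level of *Nov* was 3.34-fold lower in mutant samples (log2 fold change -1.74, SE 0.21, 95% confidence interval -2.21 to -1.27, adjusted p = 0.000772 by edgeR). It was the only one of the 10 genes that met the study's thresholds for differential expression, a fold of 2 or more with an adjusted p no higher than 0.001, which 1.37% of all genes tested met. Without control sample 1, 2 or 3 or mutant sample 2 its adjusted p by edgeR was 0.00473, 0.00721, 0.00597 and 0.00413, so that it no longer met these thresholds. Throughout, the thresholds were applied to adjusted p-values of the fits made here and not to the authors' own values. They therefore do not give the study's own calls.

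*Cyr61* (Ccn1, gene 16007, chr3:145646971-145649985), an early gene of serum, wounding and YAP that binds integrins, went the other way. Its FPKM was 34, 34.4 and 27.2 among controls and 58.9, 52.6 and 37.3 among mutants. All mutant values lay above all control values, with mutant sample 3 nearest to the controls. The level was 1.56-fold higher in mutant samples (log2 fold change 0.64, SE 0.16, 95% confidence interval 0.28 to 1.00, adjusted p = 0.0296 by edgeR). The direction held without any 1 sample. The adjusted p by edgeR was 0.0675, 0.0832 and 0.117 without control sample 1, 2 and 3 and 0.088 without mutant sample 2, above the threshold of 0.05.

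*Ctgf* (Ccn2, gene 14219, chr10:24595442-24598683), the family member best known in fibrosis, was near the limit of detection. The control samples held 9, 32 and 16 counts and the mutant samples 12, 3 and 10 counts. The groups overlapped, since mutant sample 1 had more counts than control sample 1. The log2 fold change was -1.18 (SE 0.56, 95% confidence interval -2.44 to 0.08, adjusted p = 0.202 by edgeR), and it was -0.59 without control sample 2. Of the exon bases of *Ctgf*, 23.2% overlap the antisense transcript Gm15270, and whether counting used strand is not given in the sources used here, so reads of both cannot be told apart there.

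Of the 6 family members, 3 were tested, with 1 higher and 1 lower, against 7.82% and 5.42% of all genes tested. Their median log2 fold change of -1.18 is the value of *Ctgf*, which did not pass the test. Over all genes tested the median was -0.00. The summed FPKM of the 6 members, mostly *Cyr61*, was 30.6 to 38.09 in control and 38.85 to 60.1 in mutant samples. The other 3 CCN genes were too low to be tested. *Wisp1* had 0 to 1 count in control and 1 count in each mutant sample. *Wisp2* had 5 to 7 counts in control and 0 to 4 in mutant samples, summing to 19 and 5. The ratio was 0.263 (exact 95% interval for counting error only, 0.0767 to 0.727). In the fit without a filter the adjusted p of *Wisp2* was 0.197 by edgeR. *Wisp3* had 0 to 2 counts in control samples and 4 in each mutant sample. The ratio was 2.99, and its interval for counting error only, 0.908 to 12.7, includes equal levels. In the fit without a filter the adjusted p of *Wisp3* was 0.342 by edgeR.

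**Figure D1:**
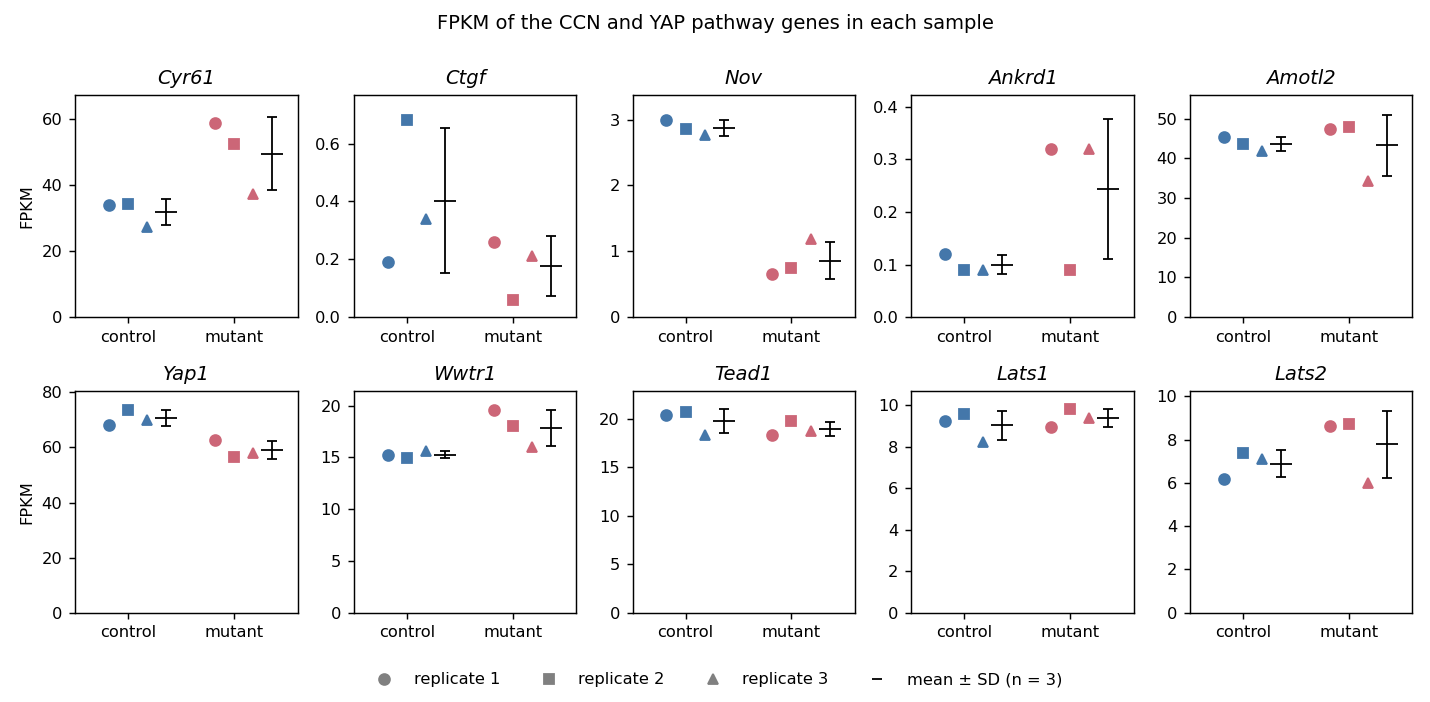
Each panel shows 1 gene, with FPKM on a linear axis from 0 against genotype. Blue symbols are control samples, red symbols are mutant samples, the symbol shape gives the replicate number, and the black bar is the mean ± SD of 3 samples. *Nov* is lower (0.65 to 1.18 against 2.77 to 3 FPKM) and *Cyr61* higher (37.3 to 58.9 against 27.2 to 34.4 FPKM) in all mutant samples, and the *Tead1* and *Lats1* points overlap.

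*Ankrd1* and *Amotl2* are 2 further transcripts that YAP and TEAD are known to switch on. *Ankrd1* (gene 107765), which encodes a nuclear ankyrin repeat protein of stretched muscle, had 4, 3 and 3 counts among controls and 11, 3 and 11 among mutants. Mutant sample 2 matched the controls, and the other mutant samples were higher. Summed over samples, 10 counts stood against 25, a ratio of 2.5 with an exact 95% interval for counting error only of 1.16 to 5.82. The gene did not pass the filter, and in the fit without a filter its adjusted p was 0.247 by edgeR. *Ankrd1* lies on chromosome 19, as *Rela* does, 30.5 megabases away.

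*Amotl2* (gene 56332), an angiomotin that binds YAP at cell junctions, was among the most abundant of the 10 genes. Its FPKM was 45.4, 43.6 and 41.7 among controls and 47.4, 48 and 34.4 among mutants. The groups overlapped, and mutant sample 3 was the lowest of all 6 samples while the other mutant samples were the highest. The log2 fold change was -0.01 (SE 0.13, 95% confidence interval -0.29 to 0.27, adjusted p = 0.97 by edgeR).

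The coactivators came next. *Yap1* (gene 22601, chromosome 9) had the highest FPKM of the 10 genes in both genotypes. Its FPKM was 68.3, 73.8 and 69.9 among controls and 62.8, 56.5 and 58.1 among mutants. The groups did not overlap. The level was 16.5% lower in mutant samples (log2 fold change -0.26, SE 0.08, 95% confidence interval -0.43 to -0.09), and its adjusted p of 0.0503 by edgeR fell just outside the threshold of 0.05. It was below 0.05 under 5 of 13 alternatives, at 0.0141 with DESeq2 and 0.0167 by edgeR without mutant sample 1, and above it under the others, at up to 0.163 without control sample 2. *Yap1* was the gene just outside the threshold, and *Cyr61*, at 0.0296, the gene just inside.

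*Wwtr1* (gene 97064, chromosome 3), which encodes TAZ, was expressed at a lower level than *Yap1*. Its FPKM was 15.2, 14.9 and 15.6 among controls and 19.5, 18 and 16 among mutants. All mutant FPKM values were above the control values, but TMM-scaled CPM values of the groups overlapped. The log2 fold change was 0.23 (SE 0.09, 95% confidence interval 0.02 to 0.43, adjusted p = 0.139 by edgeR), and without mutant sample 3 it was 0.31 with an adjusted p of 0.0471. Under the other 12 alternatives the adjusted p was 0.129 to 0.323. The ratio of *Yap1* to *Wwtr1* FPKM was 4.49, 4.94 and 4.48 among controls and 3.21, 3.14 and 3.62 among mutants. The ratio was lower in each mutant sample than in any control sample, and the smallest two-sided p of an exact permutation test with 3 samples a group is 0.1. The FPKM values of both genes summed to 85.9 ± 2.6 (SD, n = 3) in control and 77 ± 4.6 in mutant samples.

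*Tead1* (gene 21676, chromosome 7), 1 of 4 DNA-binding partners of YAP and TAZ, had an FPKM of 20.4, 20.7 and 18.3 among controls against 18.4, 19.7 and 18.7 among mutants. The groups overlapped, and the log2 fold change was -0.06 (95% confidence interval -0.23 to 0.10, adjusted p = 0.611 by edgeR). Most TEAD transcript was *Tead3*, which took 74.8% ± 1.4 (SD, n = 3) of the summed TEAD FPKM in control and 73.4% ± 0.68 in mutant samples. *Tead1* took 24.2% ± 1.4 and 24% ± 0.68. *Tead2* stayed below 0.5% in every sample.

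*Tead4* was the one TEAD gene that passed the test. Its FPKM was 0.61, 0.5 and 0.4 among controls and 1.84, 1.71 and 1.86 among mutants. The groups were far apart, with 24 to 37.1 counts in control and 102 to 113 in mutant samples. It rose 3.59-fold (log2 fold change 1.84, SE 0.19, adjusted p = 0.000379 by edgeR) and met the study's thresholds. Without control sample 1, 2 or 3 or mutant sample 2 or 3 it fell short of those thresholds. Its adjusted p by edgeR was then 0.00114, 0.00461, 0.00299, 0.00152 and 0.00114. It also fell short with a replicate block (adjusted p = 0.00106 by edgeR) and with limma on log2(FPKM + 1), where the log2 fold change was 0.90. *Tead4* made up 0.615% ± 0.117 (SD, n = 3) of the summed TEAD FPKM in control and 2.29% ± 0.18 in mutant samples, and the sum of the 4 genes overlapped between the groups, at 80.6 to 83.4 in control and 74.9 to 81.2 in mutant samples. Of the 9 tested genes of YAP, TAZ, TEAD and VGLL proteins, which compete with YAP for TEAD, 1 rose and 0 fell, with a median log2 fold change of -0.06. Over all genes tested the median was -0.00, and 7.82% were called higher and 5.42% lower.

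**Figure D2:**
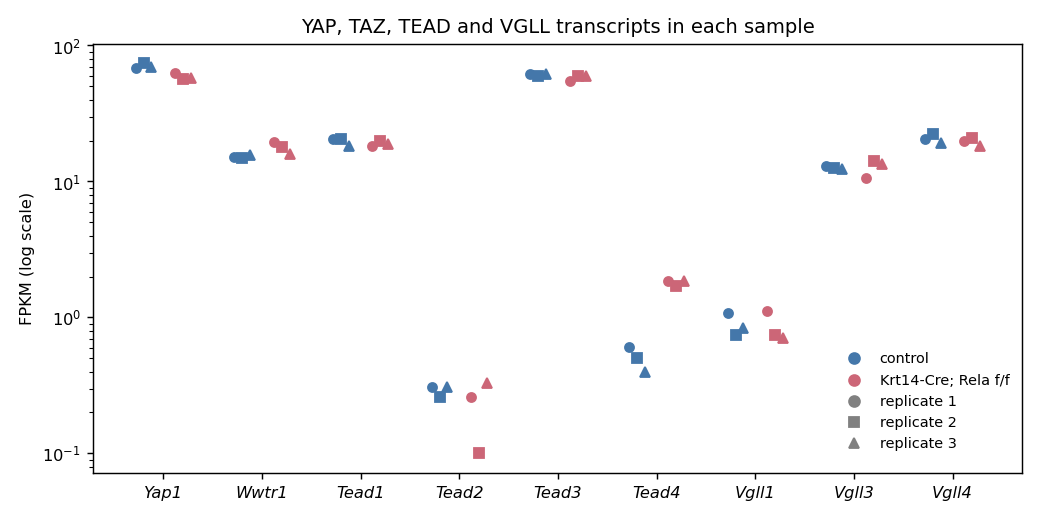
FPKM on a log axis for *Yap1*, *Wwtr1*, the 4 TEAD genes and 3 VGLL genes, with control samples in blue, mutant samples in red and the replicate number given by the symbol. *Tead4* lies between 0.4 and 0.61 FPKM in control and between 1.71 and 1.86 FPKM in mutant samples, below *Tead3* at 54.5 to 62.1 FPKM.

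*Lats1* and *Lats2* encode the kinases that phosphorylate YAP and TAZ. *Lats1* (gene 16798, chromosome 10) had an FPKM of 9.25, 9.59 and 8.25 among controls against 8.97, 9.83 and 9.4 among mutants, with a log2 fold change of 0.05 (95% confidence interval -0.12 to 0.23, adjusted p = 0.712 by edgeR). *Lats2* (gene 50523, chromosome 14), itself a known YAP target, had an FPKM of 6.18, 7.39 and 7.09 among controls against 8.65, 8.71 and 6.01 among mutants. The groups overlapped for both genes, and for *Lats2* mutant sample 3 lay below all controls. The log2 fold change of *Lats2* was 0.13 (95% confidence interval -0.16 to 0.42, adjusted p = 0.551 by edgeR). Of its exon bases, 42.4% overlap Gm49361 on the same strand, so its counts are uncertain.

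Of the 9 tested genes of the 10, 1 was higher (*Cyr61*) and 1 lower (*Nov*) at an adjusted p under 0.05, against 13.2% of all genes tested in either direction. For 3 of the 9, *Nov*, *Cyr61* and *Yap1*, the groups did not overlap, which held for 33.7% of all genes tested. The median log2 fold change of the 9 was -0.01. In log2 CPM, mutant sample 3 lay nearest the control mean for 4 of the 9, mutant sample 1 for 4 and mutant sample 2 for 1. Over all genes tested the shares were 32.7%, 30.3% and 37%. In control samples the order of the levels per length was *Yap1*, *Amotl2*, *Cyr61*, *Tead1*, *Wwtr1*, *Lats1*, *Lats2*, *Nov*, *Ctgf* and *Ankrd1*, and no neighbours overlapped in FPKM. In mutant samples *Cyr61* moved ahead of *Amotl2*, and *Ankrd1* ahead of *Ctgf*. The samples of the neighbours *Yap1* and *Cyr61*, *Cyr61* and *Amotl2*, *Tead1* and *Wwtr1*, and *Ankrd1* and *Ctgf* then overlapped.

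**Figure D3:**
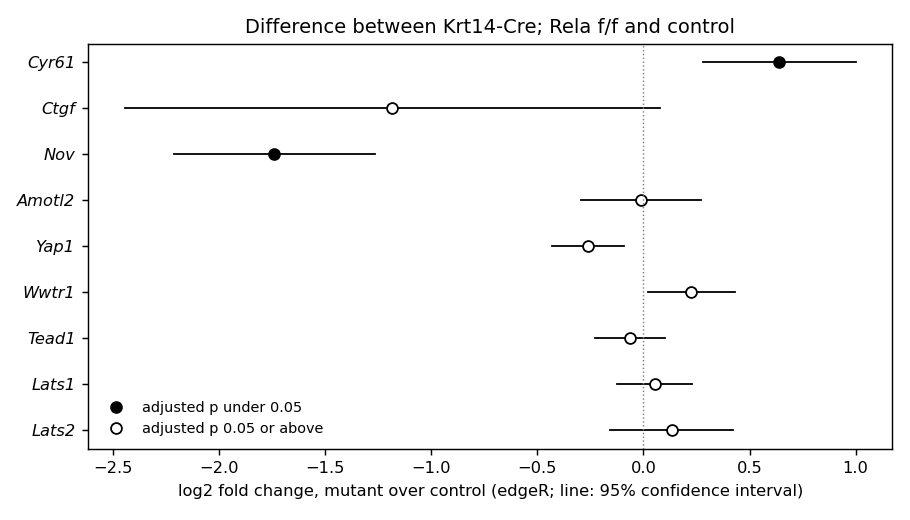
Log2 fold change of mutant over control on the x axis for the 9 tested genes, with lines for unadjusted 95% confidence intervals and filled points for an adjusted p under 0.05. *Nov* (-1.74) and *Cyr61* (0.64) are filled. *Ctgf* has the widest interval, and the intervals of *Ctgf*, *Amotl2*, *Tead1*, *Lats1* and *Lats2* include 0.

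Across the 6 samples, the genes with a mean of at least 1 CPM whose log2 CPM followed *Nov* most closely were *Slc29a1* (Pearson r = 0.998), *Sfxn2* (r = 0.995) and *Ogdh* (r = 0.994). For *Ctgf* they were *Pick1* (r = 0.997), *Zfp273* (r = 0.988) and *Cutal* (r = 0.987). These r values describe 6 points shared by all genes and were the highest of 11939 and 11940 genes compared.

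The Hippo kinases and their adaptors were the next list. Of 18 tested genes, 2 rose and 0 fell, against 7.82% of all genes tested called higher and 5.42% lower. The log2 fold changes of the 18 genes had a median of 0.04. *Map4k4*, a kinase that can phosphorylate LATS, had an FPKM of 23.1, 25.8 and 21.2 in control and of 37.9, 36.4 and 39.9 in mutant samples. It rose 1.63-fold (log2 fold change 0.70, SE 0.08, adjusted p = 0.00064 by edgeR). *Sav1*, a scaffold of the MST kinases, was 13.2 to 14.3 FPKM in control and 16.1 to 17 FPKM in mutant samples (log2 fold change 0.26, adjusted p = 0.0396 by edgeR). This call was lost under 10 of 13 alternatives, with an adjusted p of up to 0.13, among them leaving out control sample 1, 2 or 3 or mutant sample 2 or 3, with adjusted p-values by edgeR of 0.117, 0.0799, 0.13, 0.103 and 0.091.

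Transcripts known to follow YAP and TAZ formed a further list, which holds *Cyr61*, *Ctgf*, *Amotl2* and *Lats2* again. Of 19 tested genes, 2 rose and 2 fell, against 7.82% and 5.42% of all genes tested, and the median log2 fold change was -0.00. The 2 that rose include *Igfbp3*, which could be tested only because it was high in mutant samples. With a minimum of 10 counts in every sample, 3 genes of this list passed the test. *Igfbp3*, a secreted binding protein of insulin-like growth factors, had 0, 3 and 0 counts among controls and 96 to 286 among mutants (adjusted p = 0.000376 by edgeR). It passed the filter on low counts only through the mutant samples, so its call is a description only. Its counts summed to 3 and 511, a ratio of 170 with an exact 95% interval for counting error only of 57.9 to 827. The fitted log2 fold change of 7.24, which depends on the prior count and is no bound, was 6.63 without mutant sample 1 and 10.41 without control sample 2, which held all control counts. Its FPKM among mutants was 5.98, 1.99 and 2.67, so mutant sample 1 was the highest. *Cyr61* was the other that rose. *Crim1*, a transmembrane protein that binds growth factors, fell to 33.2 to 37.9 FPKM from 45.2 to 58.1 FPKM (log2 fold change -0.50, SE 0.10, adjusted p = 0.0108 by edgeR). *Nuak2*, a kinase that promotes YAP activity, fell to 24.2 to 29.9 FPKM from 34.9 to 38 FPKM (log2 fold change -0.36, SE 0.09, adjusted p = 0.0219 by edgeR). Its adjusted p was 0.0919, 0.0672 and 0.0577 without control sample 2, control sample 3 and mutant sample 3.

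SRF and its cofactors of the MRTF family, encoded by *Mkl1* and *Mkl2*, switch on cytoskeletal genes and share targets with YAP. Of 9 tested genes of this list, 4 rose and 0 fell, against 7.82% and 5.42% of all genes tested, with a median log2 fold change of 0.28. The 4 and the median include *Fhl2*, which could be tested only because it was high in mutant samples. With a minimum of 10 counts in every sample, 3 genes of this list passed the test. *Fhl2*, a LIM protein, had 2, 0 and 0 counts among controls and 43 to 60 among mutants (adjusted p = 0.000225 by edgeR). It passed the filter on low counts only through the mutant samples, so its call is a description only. Its summed counts were 2 and 151, a ratio of 75.4 with an exact 95% interval for counting error only of 20.5 to 628. The fitted log2 fold change of 5.99, likewise no bound, was 8.65 without control sample 1, which held all control counts. *Tpm1*, a tropomyosin, rose 2.01-fold from 2.27 to 3.1 FPKM to 4.62 to 5.97 FPKM (adjusted p = 0.00284 by edgeR). *Acta2*, the smooth muscle actin, rose 2.5-fold from a low level of 14.1 to 22.4 counts to 40.3 to 56.3 counts (adjusted p = 0.011 by edgeR, and 0.0537 without control sample 2). *Srf* itself rose 1.3-fold (adjusted p = 0.0315 by edgeR), and its adjusted p became 0.123, 0.119, 0.104 and 0.0585 without control sample 2 or 3 or mutant sample 2 or 3. *Acta2* is also made by stromal myofibroblasts. The keratocyte marker *Dcn* was higher among mutants, with 14 to 66 counts against 1 to 3 (adjusted p = 0.00507 by edgeR). *Dcn* passed the filter on low counts only through the mutant samples. *Pdgfra*, the other keratocyte and fibroblast marker that passed the test, fell from 2.32 to 1.36 FPKM (adjusted p = 0.00496 by edgeR). *Kera*, which defines keratocytes, had 0 to 2 counts in every sample. Their part in the result was not tested.

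Receptors of CCN proteins were the last list. Of 9 tested genes, 4 rose and 0 fell, against 7.82% and 5.42% of all genes tested, with a median log2 fold change of 0.05. The 4 and the median include *Itga5*, which could be tested only because it was high in mutant samples. With a minimum of 10 counts in every sample, 3 receptor genes passed the test. The integrin chain *Itga6*, of the hemidesmosome, rose 1.66-fold, from 87.2 to 103 FPKM in control to 159 to 162 FPKM in mutant samples (log2 fold change 0.73, SE 0.08, adjusted p = 0.000387 by edgeR). *Itgb1*, the beta chain that pairs with most of them, rose 1.55-fold, from 25.8 to 34.3 FPKM to 47.3 to 47.7 FPKM (adjusted p = 0.00244 by edgeR). *Itga5*, which pairs with *Itgb1* as a fibronectin receptor, had 3 to 9 counts in control and 41 to 70 in mutant samples. Its log2 fold change was 3.06 (SE 0.38, adjusted p = 0.000865 by edgeR). *Itga5* too passed the filter on low counts only through the mutant samples, so its call is a description only. The proteoglycan *Sdc4* rose 1.25-fold (adjusted p = 0.0118 by edgeR, and 0.0537 and 0.0568 without control sample 1 and 2).

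**Figure D4:**
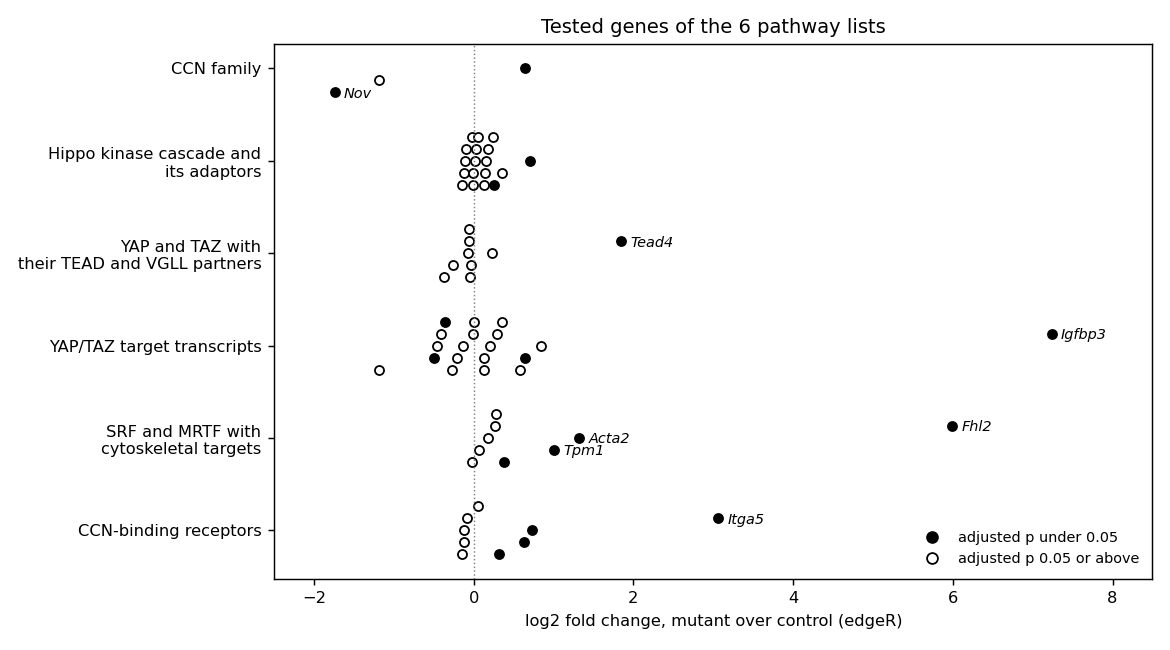
Log2 fold change of mutant over control on the x axis for each tested gene of the 6 lists, stacked vertically only for legibility. Filled points have an adjusted p under 0.05, and filled points beyond 1 in either direction are named. *Igfbp3*, *Fhl2*, *Itga5* and *Tead4* lie far to the right, the first 2 against control counts near 0, and *Nov* lies to the left.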

How the data were processed

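RNA of the corneal epithelial layer of 3 control and 3 *Krt14-Cre; Rela f/f* mice, 3 biological samples each by the paper's methods, was sequenced in bulk. Expected counts, without normalization, and FPKM values were produced and deposited by the authors with RSEM 1.2.12 after alignment with Bowtie2 2.2.5. The labels name a TruSeq kit and mm9, whereas the paper's methods give rRNA depletion and a BGISEQ-500 instrument with single-end reads 50 bases long, and the coordinates deposited by the authors are those of GRCm38. Columns with the authors' DEGseq fold changes, p-values and q-values were not used. Samples of older mice described in the paper were not used here.

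Expected counts, of which 31.5% to 32.2% per sample are not whole, were rounded and tested in edgeR 4.0.16 (R 4.3.3) with TMM scaling, filterByExpr (minimum count 10, minimum total 15) and the quasi-likelihood test. The genes and lists were chosen with earlier results of these data known. Named are all 10 genes, the other CCN genes, genes of the 6 lists with an adjusted p under 0.05, the 3 genes most like *Nov* and *Ctgf*, and *Rela*. The other TEAD genes and the cell type markers were named after their values were seen. Nothing in the sources used here says whether mice shared a litter or batch. Intervals for counting error and floors assume independent molecules. Alternatives were upper-quartile scaling, DESeq2 1.42.0, a minimum of 10 counts per sample, no filter, limma 3.58.1 on log2(FPKM + 1) and log2(FPKM + 0.1), a replicate block, and each sample left out. The tests were tested on simulated data. Exon overlaps were counted in GENCODE annotation of GRCm38.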

Additional observations from a re-analysis of the deposited data

How the results depend on the processing

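Depth limits the results of *Ankrd1*, *Ctgf* and the 3 *Wisp* genes, which have few counts. Over 25 genes (the tested ones of the 10, the list genes that passed the test, *Dcn* and *Rela*), alternative settings gave 287 values with the same direction and side of the threshold, 25 that lost and 6 that gained an adjusted p under 0.05, and 2 that reversed, both of *Amotl2* (0.01 without control sample 1 and 0.14 without mutant sample 3, in a range of -0.10 to 0.14 when a sample was left out). No gene among the 10 met the study's thresholds with limma on log2(FPKM + 0.1) or with the replicate block (0 in each, against 1), and 0 to 1 did when a sample was left out. Leaving out a sample gave 1 to 3 of the 10 with an adjusted p under 0.05, 1 to 2 CCN genes, 1 to 3 Hippo genes, 1 to 2 of the YAP, TAZ, TEAD and VGLL genes, 2 to 5 targets, 2 to 6 SRF genes and 3 to 4 receptors. With no filter and with either limma fit, 1 Hippo gene passed instead of 2. With a minimum of 10 counts in every sample, 3 targets, 3 SRF genes and 3 receptors passed, against 4 of each. With DESeq2, upper-quartile scaling and either limma fit, 2 YAP, TAZ, TEAD and VGLL genes passed instead of 1, and 3 of the 10 genes instead of 2. With a replicate block, 2 of the 10 genes passed, and same-numbered samples had correlations of 0.0373, 0.0509 and -0.0406, so the numbers were not taken to pair the samples.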
